A study of Mus musculus with 44 samples.

Results

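The transcripts described here are those seen by 200 of the 25697 probes of an Illumina mouse beadchip, the 200 with the strongest preference for liver over white adipose tissue and brain cortex. They were selected on the authors' processed log2 values. Each probe was averaged over all liver, all fat and all brain arrays of both genotypes, and the 200 probes with the largest liver mean minus the larger of the fat and brain means were kept. That difference is called the liver excess below. Levels by tissue were therefore used in the selection and are given as a description, with no test. The comparison of genotypes in liver did not enter the selection.

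The animals were female B6D2F1/J mice of 8 to 12 months, and they were either wild type (WT) or knocked out for Surf1 (KO). The sources used here do not give how the Surf1 allele was disrupted. Liver was measured in 8 WT and 8 KO animals, fat in 6 and 6, and brain cortex in 8 and 8, with 1 array per sample and 44 arrays in all. Arrays carry the names of their labels, tissue, genotype and a number read as that of the animal, which makes 23 animals. The number of arrays limits the precision.

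Surf1 helps to assemble complex IV (cytochrome c oxidase), the last enzyme of the respiratory chain in mitochondria. Hepatocytes make up most of the liver's mass. They secrete the bulk of the plasma proteins, make bile acids, store and release glucose and fat, run the urea cycle and break down foreign compounds. Transcripts of these duties are abundant in liver and scarce in most other tissues. The comparison asks whether the part of the transcriptome that sets liver apart differed in level between Surf1 KO and WT livers.

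The probes are given by identifier only, because the names deposited with them do not go with the measured values. Of 20 probes with the deposited symbol of a hepatocyte marker gene, 0 were among the 200, 0 were more than 1 log2 higher in liver than elsewhere, and 5 were detected in liver by the rule for testing. The 8 probes of adipocyte markers and the 8 of neuron markers also held 0 that were over 1 log2 higher in their own tissue. No gene, role or sequence is therefore attached to a probe, and the probe deposited for Surf1 could not be used to check the genotype labels.

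Some arrays stood apart. The 4 livers from animals numbered above 500 (2 WT, 2 KO) were dimmer than the 12 from animals numbered below 300, with a median intensity of the 200 probes of 1213 to 2552 against 7386 to 13383. They also had fewer probes of the whole beadchip detected, 31.3% to 40.8% against 43.1% to 46.7%. Both ranges held equal numbers of WT and KO livers. In fat, the array Fat_Surf1_KO_237 had 72 of the 200 probes detected above background, and the 11 other fat arrays had 35 to 61. Results that rest on these arrays are given with and without them.

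The liver excess of the 200 probes ran from 4.06 to 7.87 log2, with a median of 5.21. On the authors' processed scale the liver mean of a probe lay between 11.12 and 15.20 (median 12.47), the fat mean between 6.58 and 9.37 (median 6.98) and the brain mean between 6.95 and 8.86 (median 7.15). Over all probes of the beadchip the medians were 7.34, 7.08 and 7.25, so the median of the 200 lay well above that of all probes in liver and slightly below it in fat and in brain. The tissues were quantile normalized separately by the authors, and levels set across tissues carry that limit. In the intensities before any normalization the median of the 200 probes was 7156 in liver, 113 in fat and 96.2 in brain.

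All 200 probes were detected above background (detection p under 0.05) on all 16 liver arrays. In fat 89 of the 200 were detected on 0 of 12 arrays, in brain 115 on 0 of 16, and 72 on none of either. At the other end, 20 of the 200 were detected on every fat array and 17 on every brain array. For the 72 detected in liver alone the fold over fat and brain can only be bounded, and its size depends on how background is treated. On the scale used for the tests, where background is subtracted and each tissue is normalized on its own, liver was set against the dimmest signal that counted as detected in fat or brain. On that scale their liver level was at least 67.7-fold to at least 904-fold higher, with a median bound of 128-fold, and the highest was that of ILMN_2655871. On the authors' processed scale, where probes at background sit near 7, the excess of the same probe was 215-fold, and that of the 200 ran from 16.6-fold to 234-fold. The bounds therefore hold for the background-subtracted scale alone.

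**Figure D1:**
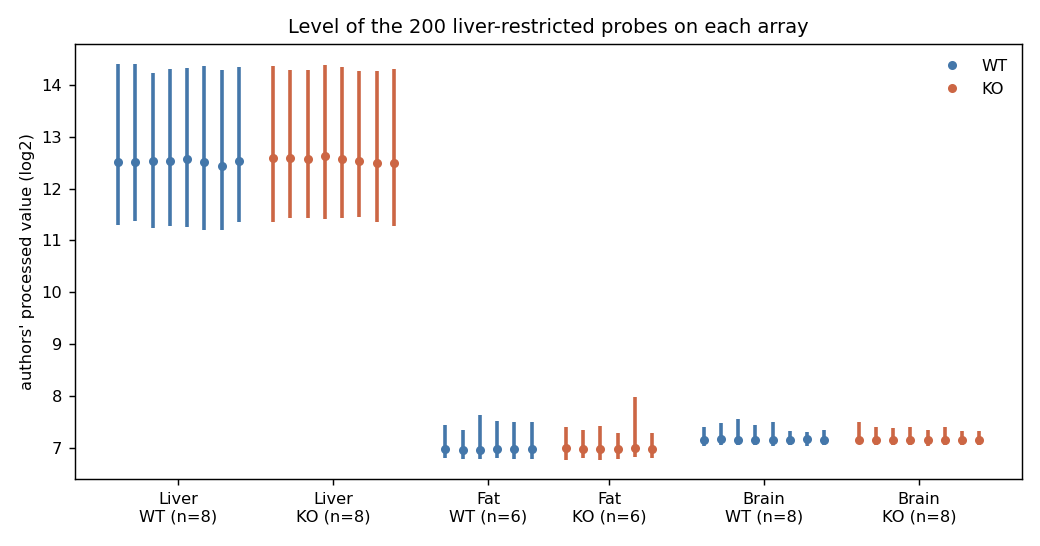
Processed log2 values of the 200 probes on each of the 44 arrays, grouped by tissue and genotype. Points are the median over the 200 probes and bars run from their 10th to their 90th percentile. The liver medians lie between 12.43 and 12.64, the fat medians between 6.962 and 6.996 and the brain medians between 7.14 and 7.16; the bar of Fat_Surf1_KO_237 reaches 7.98, the highest of the fat arrays.

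The 200 probes were few but bright in liver. They made up 14.1% ± 0.70 (SD, n = 8) of the summed intensity of a WT liver array and 15.0% ± 1.18 (SD, n = 8) of a KO one. The WT arrays ran from 13.1% to 15.1% and the KO arrays from 12.9% to 16.4%, so the genotypes overlapped. In fat the share was 0.245% ± 0.024 (SD, n = 6) in WT and 0.256% ± 0.033 (SD, n = 6) in KO, and in brain 0.276% ± 0.055 (SD, n = 8) and 0.254% ± 0.043 (SD, n = 8). Ranked by liver level among all probes, the dimmest of them stood at rank 920, and 69 were among the 200 brightest.

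The excess fell off without a break at the limit. Of all probes 1159 had an excess over 1 log2, 577 over 2 and 207 over 4, and among the 200 there were 109 over 5, 59 over 6 and 21 over 7. The last probes inside, ILMN_2746425 and ILMN_2761900, had an excess of 4.06 each. The first ones outside, ILMN_2906728 and ILMN_2927799, had 4.05 and 4.04. Probes near the limit can therefore change places with small changes in processing.

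The 5 probes of largest excess were ILMN_2625867 (7.87), ILMN_2654364 (7.79), ILMN_2603334 (7.76), ILMN_2651797 (7.76) and ILMN_2655871 (7.75). ILMN_2603334 was the brightest of all probes on 5 of the 16 liver arrays, and each of the other 4 on 0. On the normalized scale used for the tests (normexp background correction, log2, quantile within tissue), where a probe at background sits near 4.5 to 5, the 5 ranged over the 16 liver arrays from 14.20 to 15.37. The genotypes overlapped in each of them.

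In fat 4 of those 5 stayed near background on all 12 arrays, at 4.44 to 5.61. The exception was ILMN_2603334. In WT fat it read 8.53 in Fat_WT_138, 7.66 in Fat_WT_165, 7.24 in Fat_WT_139, 6.72 in Fat_WT_148, 5.04 in Fat_WT_135 and 4.68 in Fat_WT_136. In KO fat it read 4.61 to 5.52. Thus 4 of 6 WT fat arrays lay above every KO fat array, and the other 2 lay within the KO range. It was detected on 5 of 12 fat arrays and so was not among the probes tested in fat.

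In liver, none of the 200 probes passed the threshold between KO and WT. The test was limma with Benjamini-Hochberg adjustment over the 11117 probes detected in liver and a threshold of 0.05, and 0 of the 11117 passed (0%). The smallest adjusted p in the whole table, 0.118, belonged to one of the 200. At an unadjusted p under 0.05 there were 23 of the 200 (11.5%), 15 higher and 8 lower in KO, against 672 of 11117 (6.04%). The groups did not overlap in 0 of the 200 and in 4 of 11117 (0.036%). The p-values measure the spread between animals. In tissue RNA, fewer cells of a type and less RNA per cell cannot be told apart.

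The 200 probes moved little as a body. The median difference was 0.039 log2 (KO minus WT), with an interquartile range of -0.067 to 0.127, and the median over all tested probes was 0.007. There were 110 probes higher (55%) and 90 lower, against 5755 of 11117 (51.8%) higher. The median size of the difference, regardless of sign, was 0.10 for the 200 and 0.11 for all tested probes. Of the 200, 14 (7%) differed by more than 0.5 log2, against 326 of 11117 (2.93%). The median of the 200 on an array was 12.51 ± 0.04 (SD, n = 8) in WT and 12.56 ± 0.05 (SD, n = 8) in KO, with 12.43 to 12.57 in WT overlapping 12.49 to 12.64 in KO.

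Ordered by liver excess, the first 50 probes had a median KO minus WT of -0.003, the next 50 of 0.030, and both later sets of 50 a median of 0.059. The median size of the difference was 0.077, 0.091, 0.113 and 0.175 in the same order. The number at an unadjusted p under 0.05 was 3, 5, 8 and 7. The median SD between animals of 1 genotype also grew along that order, from 0.24 in the first 50 to 0.27, 0.29 and 0.33. Whether brightness in liver had a part in these trends was not tested.

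**Figure D2:**
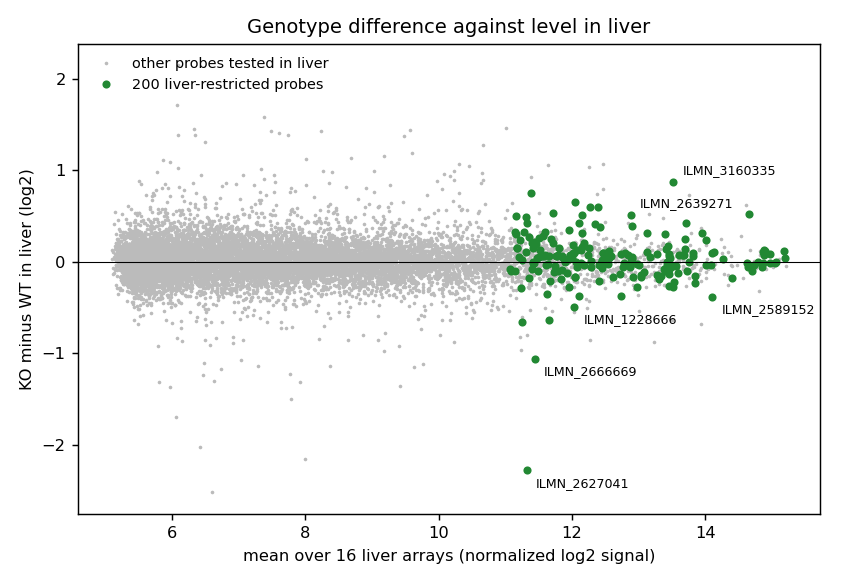
KO minus WT in liver (log2) against the mean normalized log2 signal over the 16 liver arrays, 1 point per probe. Grey points are the other tested probes and green points the 200 liver-restricted probes; most green points lie close to 0, ILMN_3160335 is the highest of them at 0.87 and ILMN_2627041 the lowest at -2.28.

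ILMN_3160335 had the smallest p of the probes higher in KO. Its normalized signal was 12.39, 13.20 and 13.50 (lowest, median and highest of 8) in WT livers and 13.45, 13.91 and 14.49 in KO livers. Of the 8 KO livers 7 lay above every WT liver, and Liver_Surf1_KO_175 at 13.45 lay among the highest WT ones. The difference was 0.87 (SE 0.17), a 1.83-fold higher signal, with a limma adjusted p of 0.118. It was 0.91 among the animals below 300 and 0.77 among those above 500. The probe was detected on 0 of 12 fat and 0 of 16 brain arrays.

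ILMN_2639271 was the next among the probes named as higher. WT livers read 12.21, 12.54 and 13.07 and KO livers 12.84, 13.16 and 13.42, so that 5 of 8 KO livers lay above every WT liver. The difference was 0.51 (SE 0.13, limma adjusted p = 0.275), and 0.49 and 0.58 in the lower and higher number range. Within each range the KO livers were the higher ones on average, while the probe was lower in the animals above 500 by a difference of -0.43 (SE 0.11, adjusted p = 0.00289).

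ILMN_1228666 had the smallest p of the probes lower in KO. WT livers read 11.88, 12.36 and 12.49, and KO livers 11.40, 11.77 and 12.29. Of the 8 KO livers 4 lay below every WT liver. The other 4 lay inside the WT range, with Liver_Surf1_KO_164 the highest at 12.29. The difference was -0.49 (SE 0.12, limma adjusted p = 0.265), with -0.47 and -0.53 in the lower and higher number range.

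ILMN_2589152 was lower in KO by a difference of -0.38 (SE 0.11, limma adjusted p = 0.323). WT livers read 14.01, 14.28 and 14.89 and KO livers 13.72, 13.93 and 14.10. The highest value was that of Liver_WT_135, and 6 of 8 KO livers lay below every WT liver. It was among the few of the 200 with a clear signal elsewhere, with a processed mean of 9.23 in fat and 7.93 in brain. The difference there was -0.27 in fat and -0.25 in brain, neither past the threshold (adjusted p = 0.549 and 0.999).

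**Figure D3:**
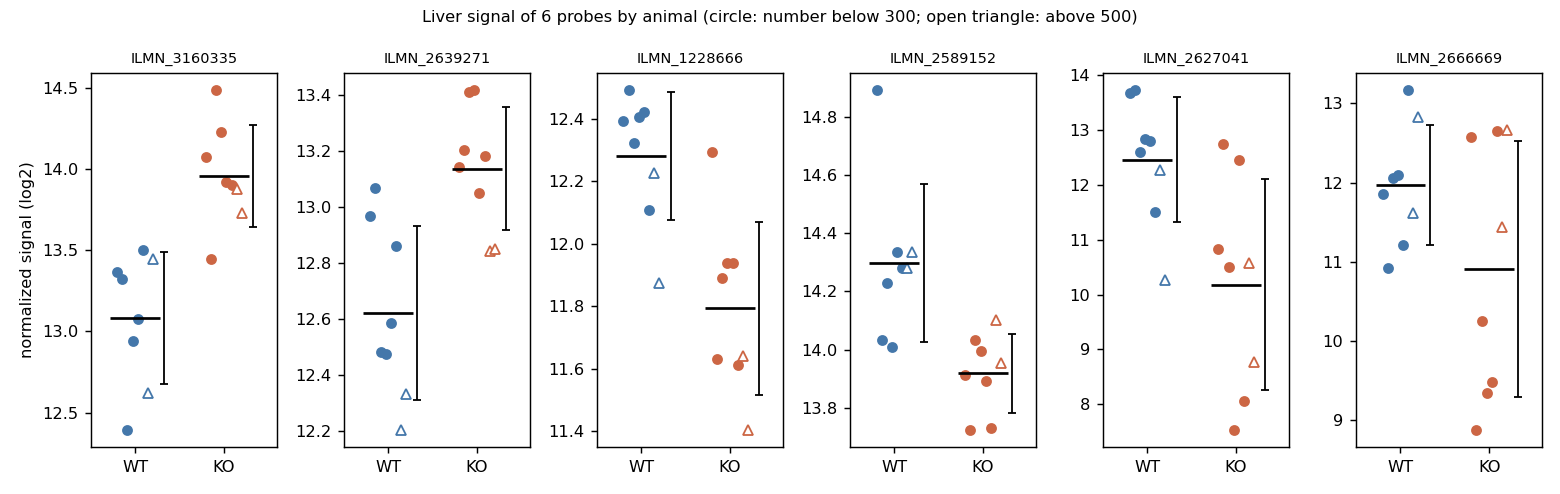
Normalized log2 signal of 6 probes in the 16 livers, WT left and KO right in each panel. Circles are animals numbered below 300 and open triangles those above 500, lines are group means and bars 1 SD (n = 8); KO and WT livers overlap in every panel, and ILMN_2627041 and ILMN_2666669 have the largest SD of the 6 in both genotypes, 1.14 and 0.76 in WT and 1.92 and 1.62 in KO.

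Most of the 200 varied little between animals. The SD between livers of 1 genotype had a median of 0.28 log2 over the 200 and of 0.34 over all 11117. It was under 0.2 in 51 of the 200, over 0.5 in 25 and over 1 in 3. The SD was larger in KO than in WT for 68 of the 200. The share over all tested probes is not given here, so this count is not read as a trait of the 200. The WT livers included Liver_WT_679, the dimmest liver array, and its part in the WT spread was not tested. The steadiest were ILMN_2632912 (0.076) and ILMN_1258359 (0.091), at 14.88 to 15.17 and 14.53 to 14.78 over the 16 livers.

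ILMN_2627041 varied most, with an SD of 1.58. WT livers read 10.27, 12.69 and 13.72 and KO livers 7.53, 10.54 and 12.75. The lowest were Liver_Surf1_KO_232 at 7.53, Liver_Surf1_KO_241 at 8.06 and Liver_Surf1_KO_598 at 8.77, which lay below every WT liver, and the other 5 KO livers lay inside the WT range. The difference of -2.28 (SE 0.69) was the largest of the 200 and corresponds to a 4.84-fold lower mean signal in KO, with a limma adjusted p of 0.384. The probe was detected on 0 fat and 0 brain arrays.

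ILMN_2666669 was the second most variable, with an SD of 1.26. Its WT livers read 10.93, 11.96 and 13.17 and its KO livers 8.88, 10.85 and 12.67. Of the KO livers 4 lay below every WT liver and the other 4 between 11.44 and 12.67. The difference was -1.06 (SE 0.55, limma adjusted p = 0.894). The low KO livers were the same ones only in part. Liver_Surf1_KO_232 lay below every WT liver in both probes, at 7.53 and 9.34. Liver_Surf1_KO_175 and Liver_Surf1_KO_237 were at 12.75 and 12.45 for ILMN_2627041 and at 8.88 and 9.47 for ILMN_2666669, while Liver_Surf1_KO_241 was at 8.06 and 12.65.

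When number range was added to the liver fit as a covariate, 3 of the 200 passed the threshold, and 24 of 11117 did (0.216%). The 3 were ILMN_3160335 and ILMN_2639271, higher in KO (limma adjusted p = 0.0329 for both), and ILMN_1228666, lower in KO (adjusted p = 0.0395). Their differences were the values given above. Both ranges held equal numbers of each genotype, so the covariate changed the spread and not the difference. Among the 12 livers below 300 alone 0 of the 200 passed, and the count over all tested probes is not given here. The limma adjusted p of the 3 was 0.0919, 0.115 and 0.118 there. Of the 200 probes 117 (58.5%) had the same sign in both ranges, 61 higher and 56 lower in KO, against 53.4% of all tested probes.

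Number range went with larger differences than genotype, with a median size of 0.277 log2 over the 200. In limma fits 80 of the 200 differed between livers above 500 and below 300, 33 higher and 47 lower above 500. That is 16.5% and 23.5% of the 200, against 20.5% and 29.8% of all 11117 tested probes. The first principal component of the 200 probes held 32.5% of their variance, and the 4 arrays above 500 scored 3.19 to 4.84 on it while the 12 below 300 scored -4.45 to 0.77. The lower brightness of those 4 arrays moved with this difference, and its part in the difference was not tested. The labels do not say what the number range stands for.

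Single probes showed the range difference in both genotypes. ILMN_1249093 read 13.49 to 13.79 in 6 WT livers below 300 and 12.41 and 12.61 in the 2 above 500. In KO livers it read 13.37 to 13.52 in the 6 below and 12.49 and 12.51 in the 2 above. All 4 livers above 500 thus lay below the other 12, with a difference of -1.07 (SE 0.08, limma adjusted p = 6.02e-08). ILMN_2667971 was at 12.91 to 13.35 below 300 and at 11.98 to 12.25 above 500 (limma adjusted p = 9.99e-08). In the other direction ILMN_2680026 was higher above 500 by 1.14 (SE 0.12, adjusted p = 9.15e-07), at 12.53 to 12.96 against 11.29 to 11.85. ILMN_2908485 was higher by 0.63 (SE 0.09, adjusted p = 3.41e-05). The KO minus WT difference of these 4 lay between -0.19 and 0.03.

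**Figure D4:**
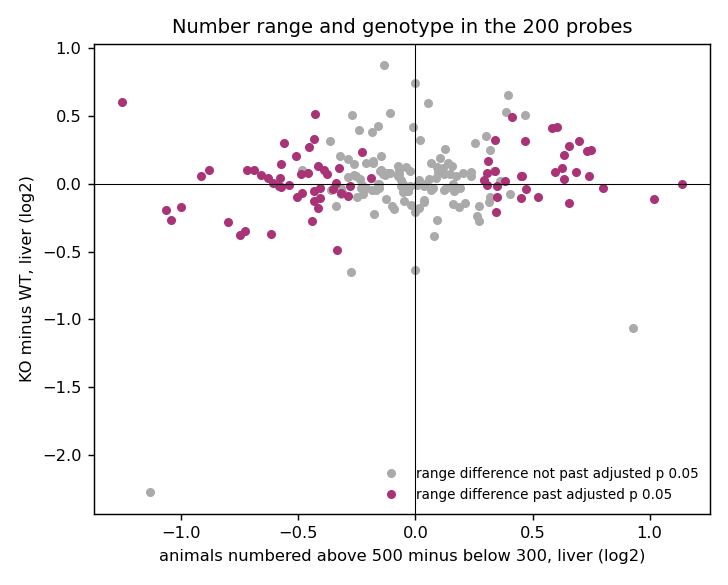
KO minus WT in liver (vertical) against the difference between animals numbered above 500 and below 300 (horizontal), both in log2, 1 point for each of the 200 probes. Purple points passed the threshold for number range; they spread along the horizontal axis from -1.25 to 1.14, while all but 14 of the 200 lie within 0.5 of 0 on the vertical axis.

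In fat 47 of the 200 were detected on enough arrays to be tested, in brain 33, and 140 in neither. A probe bright in liver and testable in fat is one of the few with fat signal, so counts over these probes do not stand for all 200. Enough meant 6 fat arrays, which 1 genotype can supply alone. Whether this raised the shares in fat was not tested. KO and WT fat differed for 0 of the 47 and for 5 of 12468 tested probes (0.0401%) in limma. At an unadjusted p under 0.05 there were 15 of the 47 (31.9%), 6 higher and 9 lower, against 14.6% of all. The 0 rested on single WT fat arrays: without Fat_WT_135 there were 3 of the 47 (92 of all tested probes, 0.738%), and without Fat_WT_136 there were 7 (426 of all, 3.42%). In brain 0 of 33 passed and 0 of 12648 (0%), and at an unadjusted p under 0.05 there were 0 of 33 against 2.45%.

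The KO effect differed between liver and fat in 5 of the 47 probes tested in both (10.6%), against 54 of 10053 (0.537%). This was the interaction in 1 limma fit over the 44 arrays, with Benjamini-Hochberg adjustment over all 10053. That fit took 1 variance per probe over the 3 tissues, so its SE and p do not measure the spread in fat alone. For ILMN_1224546 the SD was 0.76 in WT fat and 1.58 in KO fat, against 0.10 and 0.15 in liver. The selection used the fat mean over both genotypes, not the difference between them. The detection filter in fat, however, can be met by 1 genotype alone. Of the 5, ILMN_1229454 was detected on 6 of 6 WT and 2 of 6 KO fat arrays. ILMN_2863332 and ILMN_3160662 were each detected on 6 of 6 WT and 3 of 6 KO fat arrays. Whether this raised the share of 10.6% was not tested. Leaving out Fat_Surf1_KO_237 gave the same 5. Between liver and brain 0 of 33 differed, and 1 of 9353 did (0.0107%). Of the 5 probes 4 had a lower mean in KO fat than in WT fat, and 1 had a higher one. In fat alone none of the 5 passed (adjusted p = 0.074 to 0.133).

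ILMN_1224546 was the one with more signal in KO fat. It read 6.68, 5.73, 5.44, 4.84, 6.86 and 5.76 in WT fat (Fat_WT_135, Fat_WT_136, Fat_WT_138, Fat_WT_139, Fat_WT_148 and Fat_WT_165) and 6.96, 10.96, 6.96, 9.77, 8.75 and 8.21 in KO fat (Fat_Surf1_KO_164, Fat_Surf1_KO_175, Fat_Surf1_KO_231, Fat_Surf1_KO_232, Fat_Surf1_KO_237 and Fat_Surf1_KO_241). Every KO fat array lay above every WT one, with a wide spread among the KO arrays. The fat groups were fully apart in 2 of the 47 probes tested in fat, ILMN_1224546 and ILMN_2632912, and in 96 of all 12468. In liver WT ran from 13.59 to 13.92 and KO from 13.73 to 14.15, overlapping. The KO effect was 2.71 in fat and 0.10 in liver, an interaction of -2.62 (SE 0.47, adjusted p = 0.0018). It was detected on 5 of 6 WT and 6 of 6 KO fat arrays.

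ILMN_1229454 went the other way in fat. WT fat read 5.20, 6.15 and 7.01 (lowest, median and highest of 6) and KO fat 4.602, 4.96 and 5.42, with 5 of 6 WT arrays above every KO array. It was detected on 6 of 6 WT and 2 of 6 KO fat arrays. In liver it was 0.42 higher in KO (adjusted p = 0.665), with 13.00 to 14.22 in WT and 13.43 to 14.30 in KO. The interaction was 1.57 (SE 0.26, adjusted p = 0.000609), from a fat effect of -1.15.

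ILMN_2632912, the steadiest of the 200 in liver, read 6.98 to 7.72 in WT fat and 6.14 to 6.91 in KO fat. The fat groups did not overlap, and all 12 fat arrays were above background. The mean was 7.36 ± 0.33 (SD, n = 6) in WT fat and 6.58 ± 0.28 (SD, n = 6) in KO fat, while the livers differed by -0.01. The interaction was 0.77 (SE 0.16, limma adjusted p = 0.0112).

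ILMN_2863332 was at 6.67 ± 0.84 (SD, n = 6) in WT fat and 5.21 ± 0.49 (SD, n = 6) in KO fat, with an interaction of 1.49 (SE 0.28, limma adjusted p = 0.00236). ILMN_3160662 was at 6.93 ± 0.80 (SD, n = 6) and 5.64 ± 0.74 (SD, n = 6), with an interaction of 1.43 (SE 0.35, limma adjusted p = 0.0354). The fat groups of both overlapped, and each was detected on 3 of 6 KO fat arrays. Fat_WT_136 had the lowest WT value in both, 5.40 and 5.82. ILMN_3160662 was also detected on 16 of 16 brain arrays, at 6.93 to 7.72. The first 4 of the 5 passed in all 28 fits that left out 1 liver or fat array, and ILMN_3160662 in 16 of the 28, with an adjusted p of up to 0.106. With cyclic loess normalization ILMN_2632912 no longer passed. ILMN_3160662 no longer passed without background correction, with the authors' processed values or among animals below 300 alone.

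**Figure D5:**
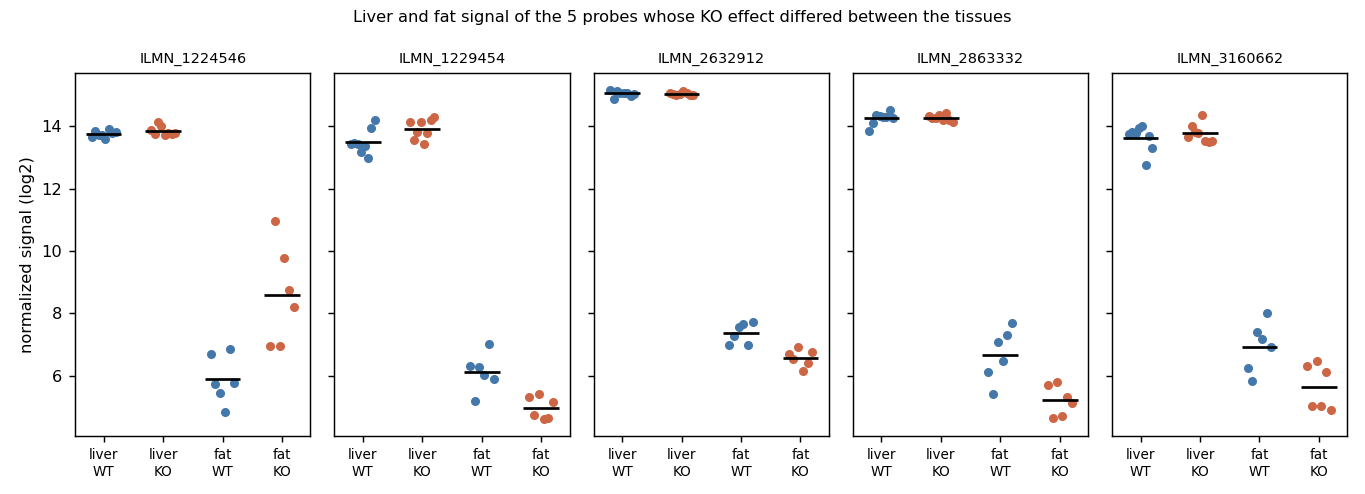
Normalized log2 signal of the 5 probes whose KO effect differed between liver and fat, by tissue and genotype, 1 point per array with a line at the group mean (liver n = 8 per group, fat n = 6). The tissues were normalized separately; fat is lower in KO for 4 probes and higher for ILMN_1224546, while the liver groups overlap in all 5.

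A few of the 200 had a steady signal outside the liver. The highest fat means on the processed scale were those of ILMN_1259174 (9.37) and ILMN_2589152 (9.23), both detected on 12 of 12 fat arrays. The highest brain means were those of ILMN_1249093 (8.86) and ILMN_2925275 (8.47), detected on 16 of 16 brain arrays. In all 6 of the 200 had a fat or brain mean over 8. Their liver means lay between 13.30 and 14.10.

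Fat_Surf1_KO_237 had more of the 200 probes detected than any other fat array. On it 24 of the 200 probes (12.0%) were more than 1 log2 above every other fat array, against 1.30% of all probes of the beadchip. On each of the other 11 fat arrays 0 or 1 of the 200 stood out so. These counts and the probes named from them were chosen after the values were seen, and they get no test. ILMN_1254930 read 9.97 on it against 7.38 on the next highest fat array, ILMN_3143088 read 9.27 against 5.96, and ILMN_1249093 read 9.19 against 6.41.

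The probes that stood out on that array were not those of largest excess. The 5 of largest excess read 4.58 to 4.76 there, and 2 of the 24 were among the first 50 by excess. The excess of the 24 had a median of 5.11 and that of the other 176 a median of 5.21. In the liver of the same animal ILMN_1254930 read 11.92 and in its brain 6.60. Without that array 0 of the 47 probes tested in fat passed the threshold between KO and WT, as with it. The count over all probes tested in fat without that array is not given here.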

How the data were processed

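RNA of 3 mouse tissues was hybridised as biotinylated cRNA to 1-colour Illumina beadchips, per the labels' protocols. The authors deposited a non-normalized intensity for each probe and array, with a detection score deposited as a p-value, whose rank correlation with the intensity was 0.966 or higher on every array. The score was therefore taken to be 1 minus p. Processed log2 values were deposited as well, for which the submitters' processing notes name lumi; sorted values within a tissue differed by at most 0.0166, so they were quantile normalized within tissue. The sources used here do not give whether their transform was a plain log2, nor slide or scan date. The processed values served for the selection and for levels by tissue.

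For the tests, the intensities were background corrected in limma 3.58.1 (R 4.3.3, statmod 1.5.0) with normexp parameters estimated from the detection p. An offset of 16 was added, and values were put on the log2 scale and then quantile normalized within tissue. Tests in a tissue were limited to probes with a detection p under 0.05 on 8 or more liver or brain arrays, or 6 or more fat arrays. Every probe was tested on its own, not 1 per deposited symbol. The two-sided tests came from lmFit and eBayes (trend on intensity), adjusted by Benjamini-Hochberg over all tested probes. The procedure was tested on simulated data with independent noise for each probe and planted differences larger than most of those seen in liver. The simulation held no difference by number range, so its outcome does not bear on the liver result. No genotype fit used animal number unless stated. Bounds for undetected probes set the liver mean against, per array, the higher of the dimmest detected signal and the probe's own.

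Probes were named by a rule: the 5 of largest excess, the 2 on each side of the limit, every probe past the threshold in a genotype comparison, and the 2 most extreme by genotype in each direction, by spread, by fat or brain mean, by number range and by interaction. The 200 probes, the lists and the rule were chosen with earlier results of these data known. Liver WT and KO shared 0 animal numbers, and no column of another series was present. Arrays of one number in several tissues were examined for pairing: deviations from the group means correlated with a median of 0.098 (12 animals, -0.22 to 0.41) between liver and fat and of 0.013 (9 animals, -0.12 to 0.51) between liver and brain. Alternatives were other background corrections, normalizations, filters, covariates, weights and sample sets.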

Additional observations from a re-analysis of the deposited data

Results flagged for a closer look

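Of 72 groups of values examined over the named probes, 3 held 1 array far from the others, and chance alone marks about 1 group in 20. The 72 did not take in every group of these probes, and single arrays also stood apart outside the 3. On Fat_Surf1_KO_237 ILMN_1249093 read 9.19, ILMN_2908485 9.13 and ILMN_2761900 6.93. The next highest fat arrays read 6.41, 6.82 and 4.87. In ILMN_2655871 Liver_WT_135 was at 14.20, below the other 7 WT livers at 14.75 to 15.08. In ILMN_2589152 the same array was at 14.89, above the others at 14.01 to 14.34. In ILMN_3018017 Liver_Surf1_KO_232 was at 12.78, above the other KO livers at 12.54 to 12.63. The KO effect of 5 probes differed between liver and fat in the limma interaction. The liver effect minus the fat effect was -2.62 for ILMN_1224546, 1.57 for ILMN_1229454, 0.77 for ILMN_2632912, 1.49 for ILMN_2863332 and 1.43 for ILMN_3160662.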

How the results depend on the processing

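The number of the 200 probes past the threshold in liver was 0 with other background corrections, normalizations and filters, and in either number range alone. It was 3 with the number range as covariate (24 of all tested probes), 10 with array weights (189) and 6 in 1 fit over all 44 arrays (85), against 0. The 6 were ILMN_3160335, ILMN_2639271, ILMN_1231036 and ILMN_2860135, higher in KO, and ILMN_1228666 and ILMN_2627041, lower. Leaving out each liver array in turn gave 0 to 1, and the 1 was ILMN_3160335 without Liver_WT_679 (adjusted p = 0.0463). Counts over all tested probes in these leave-out fits and in the settings that gave 0 are not given here. The median KO minus WT over the 200 was -0.031 among the 4 animals above 500 alone and 0.017 to 0.041 with 1 array left out. Of 6 probes followed through these settings, those plotted by animal, none changed direction. In fat, leaving out each array in turn gave 0 to 7, the highest without Fat_WT_136. The interaction between liver and fat was passed by 7 of the 47 probes with the animal as replicate block (consensus correlation 0.10; 78 of all tested probes, against 54), by 4 among animals below 300 alone (66 of all), and by 4 to 8 with 1 array left out (24 to 154 of all, 0.239% to 1.53%). The 8 came without Fat_WT_136, which also gave the 154. Over all tested probes that interaction gave 108 calls without background correction, 173 with the authors' processed values and 99 without a filter, where 7 of the 200 passed, ILMN_2603334 among them. The number range was passed by 69 to 88 of the 200 with 1 array left out. With all liver arrays it was passed by 80 of the 200 and by 5595 of all 11117 tested probes. Of the 200 probes 180 to 197 were selected again from medians, normexp intensities, 1 genotype or animals below 300. Few probes had signal over background in fat and brain, which limits the comparisons there.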
